A study of Homo sapiens with 4 samples.

Results

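Cholesterol and fatty acid synthesis genes were followed by RNA-seq in SU-DHL-5 and Toledo, 2 established human cell lines of diffuse large B-cell lymphoma (DLBCL), after treatment with JQ1. JQ1 is a small molecule that displaces the bromodomain and extra-terminal (BET) proteins from acetylated chromatin. The genes were 33 of the 41507 in the gene table, taken by name as regulators of the sterol regulatory element binding proteins (SREBPs), enzymes of sterol and fatty acid synthesis, and a sterol carrier. They were chosen by function and with the JQ1/DMSO ratios of these same libraries already known, so those ratios are given as a description. For each line, 1 sample of cells cultured with serum received DMSO, the vehicle, and 1 sample received JQ1 at 1 µM, for 6 h by the labels, while the study's text gives a longer time. Each sample had 2 libraries of polyadenylated RNA, whose difference in origin is not stated, so that n = 1 per condition in each line and no test within a line was possible. A fit of JQ1 over both lines was not used, since the genes were chosen with these ratios known. The values are RPKM, reads scaled to gene length and to the number mapped in the library, and give the share of a gene in the RNA of a library. In such bulk samples, fewer cells that express a gene and less RNA per cell cannot be told apart.

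Cholesterol is built from acetyl-CoA through the mevalonate pathway, which leads to farnesyl diphosphate, and then through squalene and lanosterol. Fatty acids are built from the same acetyl-CoA, elongated and desaturated. When membranes hold little sterol, SCAP escorts the SREBPs from the endoplasmic reticulum to the Golgi, where they are cut and released to switch on genes of both pathways. INSIG1 and INSIG2 hold SCAP back when sterol is plentiful, and INSIG1 is itself a target of the SREBPs. The transcription factors are encoded by SREBF1, best known for fatty acid genes, and SREBF2, best known for cholesterol genes.

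The libraries had 14617583 to 17679831 mapped reads, recovered from the RPKM values, and 94.8% to 95.5% of them lay on genes. The 6 B-cell markers summed to between 599 and 984 RPKM in every library, against at most 1.24 RPKM for 4 T-cell markers and 1.29 RPKM for 4 myeloid markers, and the 4 epithelial markers were at 0. All 33 genes had a mean of at least 1 RPKM over the 8 libraries, as did 9521 genes in all, which are the background used for every count. The libraries of a sample differed by a median of 0.17 (log2) over the 33 genes in SU-DHL-5 DMSO, 0.05 in SU-DHL-5 JQ1, 0.18 in Toledo DMSO and 0.09 in Toledo JQ1. Between the 2 Toledo DMSO libraries the log2 ratio moved with transcript length, with a Spearman's rho of 0.72 across the 33 genes, which are not independent replicates, and 0.61 across all 9521. In the other samples rho was -0.19 for SU-DHL-5 DMSO, 0.47 for SU-DHL-5 JQ1 and -0.54 for Toledo JQ1 across the 33 genes, and -0.09, -0.06 and -0.26 across all genes. The trend does not tell which of the 2 Toledo DMSO libraries departed. Results in Toledo are therefore also given without the second and without the first DMSO library, a choice made after this was seen.

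Promoter sequences are shown for 4 genes that were higher with JQ1 in both lines, for ELOVL6, the synthesis enzyme that was past 1.5-fold lower in both, and for SREBF2, whose window alone held a match to the sterol regulatory element. They come from RefSeq on GRCh38.p14 and run 5′ to 3′ on the strand of the gene. The bases shown lie before the start of the gene in the deposited table and outside annotated exons of coding genes, so that those of MVD and ELOVL6 end some bases short of that start. Capitals mark matches on either strand to the sterol regulatory element TCACNCCAC, the CCAAT box CCAAT, the E-box CACGTG and the GC box GGGCGG. The bases shown end between 27 (SREBF2) and 103 (INSIG1) bases before the RefSeq start, while the windows counted below run up to that start. Some counted matches are therefore not shown, among them an E-box of INSIG1 that begins 55 bases before its RefSeq start.
INSIG1 promoter, chr7:155297628-155297775, plus strand: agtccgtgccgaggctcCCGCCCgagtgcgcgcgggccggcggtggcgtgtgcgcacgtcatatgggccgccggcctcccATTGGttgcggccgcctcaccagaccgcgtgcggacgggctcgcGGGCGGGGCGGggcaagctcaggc
LSS promoter, chr21:46228825-46229024, minus strand: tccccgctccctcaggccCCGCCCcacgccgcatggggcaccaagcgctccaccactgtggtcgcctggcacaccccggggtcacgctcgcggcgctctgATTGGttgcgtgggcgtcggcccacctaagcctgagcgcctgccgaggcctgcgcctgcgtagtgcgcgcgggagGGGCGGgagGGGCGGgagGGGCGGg
MVD promoter, chr16:88663162-88663341, minus strand: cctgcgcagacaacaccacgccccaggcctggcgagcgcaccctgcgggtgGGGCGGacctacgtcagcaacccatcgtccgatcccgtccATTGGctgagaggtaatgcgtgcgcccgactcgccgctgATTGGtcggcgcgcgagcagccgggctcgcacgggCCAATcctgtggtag
AACS promoter, chr12:125065185-125065378, plus strand: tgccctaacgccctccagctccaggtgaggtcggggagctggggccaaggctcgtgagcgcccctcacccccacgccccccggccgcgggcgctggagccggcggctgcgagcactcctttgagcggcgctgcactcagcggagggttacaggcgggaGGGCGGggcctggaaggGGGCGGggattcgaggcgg
ELOVL6 promoter, chr4:110198677-110198841, minus strand: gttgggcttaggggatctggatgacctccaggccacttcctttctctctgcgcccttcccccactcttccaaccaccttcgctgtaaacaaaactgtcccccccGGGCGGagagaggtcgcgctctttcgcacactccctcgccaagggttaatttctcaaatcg
SREBF2 promoter, chr22:41832855-41833078, plus strand: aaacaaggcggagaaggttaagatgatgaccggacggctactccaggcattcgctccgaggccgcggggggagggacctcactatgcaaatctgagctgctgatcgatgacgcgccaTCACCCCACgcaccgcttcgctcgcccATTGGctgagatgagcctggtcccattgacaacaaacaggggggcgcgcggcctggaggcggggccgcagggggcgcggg

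The promoter table held 29 of the 33 genes, with 41 windows of 250 bases before a start. A CCAAT box was found in a window of 19 of these 29 genes (65.5%), against 37.0% of the 27305 genes in the table and 43.0% of the 7412 genes in it of at least 1 RPKM. A GC box was found for 28 genes (96.6%), against 46.2% and 76.4%, respectively. An E-box, the site bound by MYC and its relatives, was found for 3 genes (10.3%), against 7.73% and 11.6%. The sterol regulatory element in the spelling searched was found for 1 gene (3.45%), against 1.09% and 1.27%. These matches describe the letters in the windows and do not show that a factor was bound. Some genes have several start sites in the table, and each was searched.

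In SU-DHL-5, more of the 33 genes were higher than lower with JQ1, led by INSIG1 at 2.73 times its DMSO level. The JQ1 libraries both exceeded the DMSO libraries for 20 of the 33 genes, where 41.1% of all 9521 genes did so, and were both lower than them for 6, where 37.3% did. Past 1.5-fold, 8 genes were higher (background 8.7%) and 2 were lower (background 12.0%). The 8 were INSIG1, TM7SF2, LSS, SCD, IDI1, AACS, STARD4 and MVD, and the 2 were ACAT2 and ELOVL6. The median log2 ratio was 0.24 over the 33 genes and 0.01 over all genes. FADS1 had no reads in either sample and stands at a ratio of 0, and without it the median over 32 genes was 0.27. The RPKM of the 33 genes summed to 1037 and 968 in DMSO and to 1264 and 1231 with JQ1. This difference was uneven, with INSIG1 alone at means of 63.5 and 173 RPKM. Mevalonate enzymes summed to 480 and 443 in DMSO and to 479 and 465 with JQ1. Squalene and sterol enzymes summed to 289 and 270 in DMSO and to 350 and 338 with JQ1. Fatty acid and lipid enzymes summed to 133 and 117 in DMSO and to 178 and 178 with JQ1.

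In Toledo, genes of sterol synthesis and of fatty acid synthesis each lay on both sides. The JQ1 libraries both exceeded the DMSO libraries for 11 of the 33 genes (background 29.3%) and were both lower for 14 (background 42.9%). Past 1.5-fold, TM7SF2, AACS, MVD and SQLE were higher (4 genes, background 6.61%), and FADS1, ELOVL6, FADS2 and FASN, all fatty acid enzymes, were lower (4 genes, background 16.1%). The median log2 ratio was -0.06 over the 33 genes and -0.06 over all genes. Without the second Toledo DMSO library, 15 genes lay above and 15 below. Past 1.5-fold, 5 were higher and 3 were lower, where FASN left the lower side at -0.57. Without the first Toledo DMSO library, 12 genes lay above and 19 below, and past 1.5-fold 4 were higher and 4 lower. The median log2 ratio was -0.03 without the second and -0.10 without the first. The shares of all genes were not computed for these settings, and those given above do not apply to them. With 1 DMSO library left, absence of overlap is also easier to reach. The summed RPKM was 1102 and 1099.8 in DMSO and 1013 and 1029 with JQ1.

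**Figure D1:**
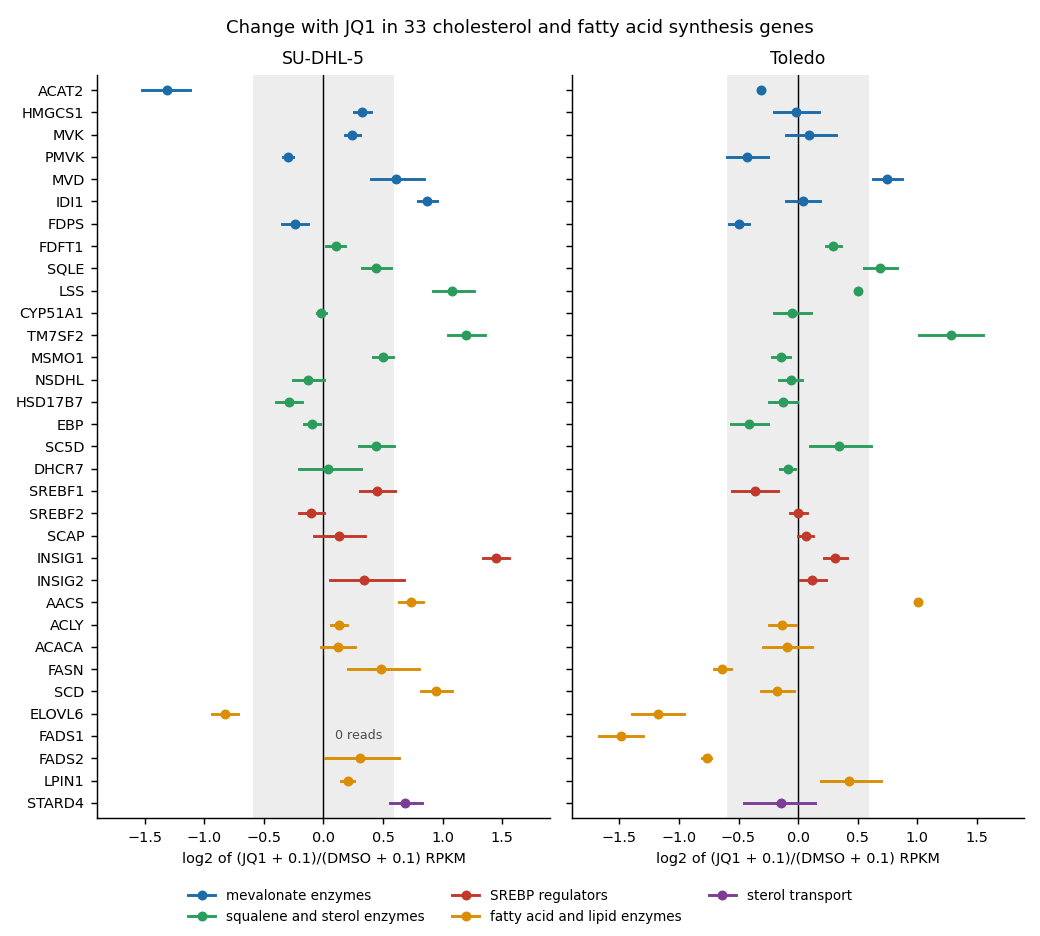
Change with JQ1 of each of the 33 genes in SU-DHL-5 (left) and Toledo (right), as log2 of the ratio of JQ1 to DMSO with 0.1 RPKM added, coloured by role. Points are the ratios of the mean of 2 libraries, lines span the 4 pairs of single libraries, and the grey band marks changes under 1.5-fold. INSIG1, TM7SF2 and LSS lie farthest right in SU-DHL-5, TM7SF2 and AACS in Toledo, and ELOVL6 lies left of the band in both.

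Among the regulators, INSIG1 stood out in SU-DHL-5, and the transcription factors moved little or in opposite ways. INSIG1 (chr7:155297776-155310235), the sterol-regulated anchor of SCAP, was at 59.4 and 67.7 RPKM in the DMSO libraries of SU-DHL-5 and at 176 and 171 RPKM with JQ1. Its log2 ratio was 1.45, with an exact binomial 95% interval from 1.40 to 1.49 on its recovered reads, which like all such intervals below covers counting error only. In Toledo, INSIG1 was at 43.0 and 46.8 RPKM in DMSO and at 57.1 and 54.3 RPKM with JQ1, a log2 ratio of 0.31 (interval 0.26 to 0.37). Both JQ1 libraries were above both DMSO libraries in each line, and the ratio in SU-DHL-5 was higher for every pair of libraries.

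INSIG2, the related anchor that is not known as a direct SREBP target, was at 5.48 and 8.16 RPKM in SU-DHL-5 DMSO and at 8.80 and 8.48 RPKM with JQ1. In Toledo its level was 5.18 and 5.97 RPKM in DMSO and 6.03 and 6.10 RPKM with JQ1. The groups did not overlap in either line, but the log2 ratios were small, at 0.34 and 0.12, and the counting interval in Toledo, from -0.06 to 0.31, held 0. SCAP, the escort of the SREBPs, was at 10.0 and 8.16 RPKM in SU-DHL-5 DMSO and 10.4 and 9.51 RPKM with JQ1, which overlap. In Toledo SCAP was at 13.2 and 13 RPKM in DMSO and 13.2 and 14.2 RPKM with JQ1, a log2 ratio of 0.06 (interval -0.03 to 0.16).

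SREBF2 (chr22:41833079-41907308), which encodes SREBP-2, was among the more abundant of the 33 genes and its libraries overlapped in both lines. It was at 44.9 and 39.3 RPKM in SU-DHL-5 DMSO and 39.4 and 38.8 RPKM with JQ1, a log2 ratio of -0.11. Toledo cells had it at 30.2 and 32.9 RPKM in DMSO and 31.9 and 31.4 RPKM with JQ1, a log2 ratio of 0.00 (interval -0.05 to 0.06).

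SREBF1 (chr17:17811349-17837017), which encodes SREBP-1, went opposite ways in the 2 lines. In SU-DHL-5 it was at 7.51 and 6.4 RPKM in DMSO and at 9.79 and 9.33 RPKM with JQ1, a log2 ratio of 0.45 (interval 0.35 to 0.58). The Toledo level was 1.91 and 2.24 RPKM in DMSO and 1.68 and 1.49 RPKM with JQ1, a log2 ratio of -0.37 (interval -0.62 to -0.15). The transcript table splits SREBF1 into 4 transcripts, and the difference in SU-DHL-5 lay in the one with an internal start, SREBF1_4 (chr17:17811406-17823639). SREBF1_4 was at 1.10 and 1.26 RPKM in SU-DHL-5 DMSO and at 4.83 and 3.82 RPKM with JQ1, a log2 ratio of 1.79. SREBF1_1, which begins at the upstream start, was at 6.03 and 4.13 RPKM in DMSO and 4.33 and 4.57 RPKM with JQ1, which overlap. Reads of shared exons are divided between transcripts by an estimate, so values of single transcripts are less certain than those of genes.

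**Figure D2:**
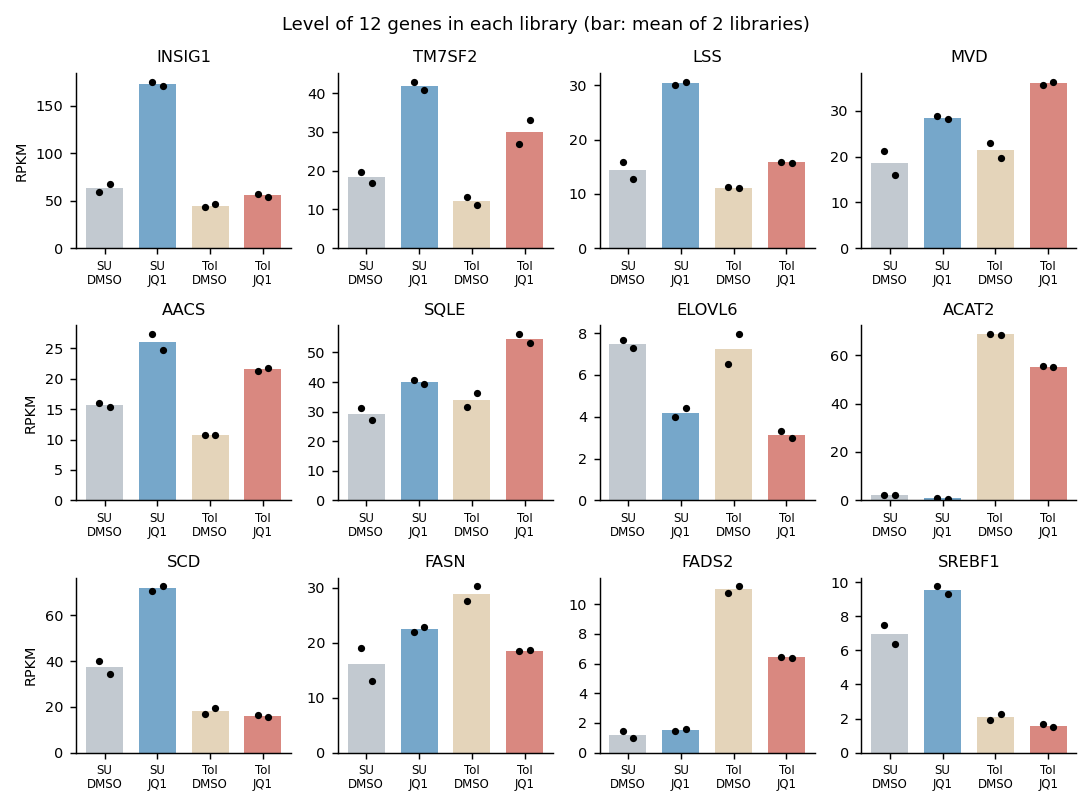
Level in RPKM of 12 genes in the 4 samples, SU-DHL-5 (SU) and Toledo (Tol) with DMSO or JQ1. Bars are means of 2 libraries and points the libraries. INSIG1, TM7SF2, LSS, MVD, AACS and SQLE are higher with JQ1 in both lines, ELOVL6 and ACAT2 are lower in both, and SCD, FASN, FADS2 and SREBF1 are higher in SU-DHL-5 and lower in Toledo.

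The 7 mevalonate enzymes divided in each line. In SU-DHL-5, HMGCS1, MVK, MVD and IDI1 were higher in both libraries (57.1%, background 41.1%) and ACAT2, PMVK and FDPS lower (42.9%, background 37.3%). In Toledo, MVD was higher (14.3%, background 29.3%), the same 3 were lower (42.9%, background 42.9%) and the libraries of HMGCS1, MVK and IDI1 overlapped. MVD (chr16:88651937-88663087), which makes isopentenyl diphosphate, was at 21.2 and 16.0 RPKM in SU-DHL-5 DMSO and at 28.9 and 28.1 RPKM with JQ1, a log2 ratio of 0.61 (interval 0.52 to 0.72). In the Toledo libraries it was at 23.0 and 19.8 RPKM in DMSO and 35.6 and 36.4 RPKM with JQ1, a log2 ratio of 0.75 (interval 0.65 to 0.84). IDI1, which isomerizes that product, is named after its values were seen: SU-DHL-5 gave a log2 ratio of 0.87 and Toledo one of 0.04.

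ACAT2 (chr6:159761957-159779055), the cytosolic thiolase of the first step, was low in SU-DHL-5 and abundant in Toledo. It was at 2.21 and 2.04 RPKM in SU-DHL-5 DMSO and at 0.886 and 0.704 RPKM with JQ1, from 128 and 46 reads over both libraries, a log2 ratio of -1.31 (interval -1.92 to -0.91). In Toledo it was at 68.9 and 68.5 RPKM in DMSO and at 55.4 and 55.1 RPKM with JQ1, a log2 ratio of -0.31 (interval -0.38 to -0.25). The end of ACAT2 overlaps TCP1, a chaperonin subunit gene at a mean of 147 RPKM, by 558 bases, so part of the few reads in SU-DHL-5 may be shared. TCP1 had log2 ratios of -0.25 and -0.09, and its part in the values of ACAT2 was not tested.

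FDPS, which makes farnesyl diphosphate, had the highest level of the 33 genes in both lines, with a mean of 279 RPKM in SU-DHL-5 DMSO, and its log2 ratios were -0.24 and -0.50. Most of it was given to 2 transcripts with the same ends, FDPS_2 and FDPS_3. FDPS_2 was at 189 and 162 RPKM in SU-DHL-5 DMSO and at 126 and 118 RPKM with JQ1. In Toledo FDPS_2 was at 181 and 164 RPKM in DMSO and at 87.1 and 88 RPKM with JQ1. FDPS_3 was close to level, with log2 ratios of 0.07 and -0.01, so of these 2 the lower value lay in FDPS_2. The less abundant transcripts went both ways. FDPS_4 was lower, with log2 ratios of -1.16 and -1.88, and FDPS_7 was higher, with 0.68 and 0.64.

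Of the 11 squalene and sterol enzymes, 6 were higher in both libraries in SU-DHL-5 (background 41.1%) and 2 were lower (background 37.3%). In Toledo 5 were higher (background 29.3%) and 4, MSMO1, HSD17B7, EBP and DHCR7, were lower (background 42.9%). FDFT1, SQLE, LSS, TM7SF2 and SC5D were higher in both lines. TM7SF2 (chr11:65111854-65116235), a sterol C14 reductase, had the highest ratio in Toledo. It was at 19.7 and 16.8 RPKM in SU-DHL-5 DMSO and at 43.0 and 40.9 RPKM with JQ1, a log2 ratio of 1.20 (interval 1.10 to 1.32). Toledo cells had it at 13.2 and 11.2 RPKM in DMSO and at 26.8 and 33.1 RPKM with JQ1, a log2 ratio of 1.29 (interval 1.15 to 1.42). TM7SF2 overlaps VPS51 by 7 bases, and VPS51 had log2 ratios of -0.15 and -0.34.

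LSS (chr21:46188446-46228824), which closes squalene epoxide into lanosterol, was at 15.9 and 12.7 RPKM in SU-DHL-5 DMSO and at 30.1 and 30.7 RPKM with JQ1, a log2 ratio of 1.08 (interval 1.02 to 1.17). The Toledo level was 11.2 and 11.1 RPKM in DMSO and 15.9 and 15.7 RPKM with JQ1, a log2 ratio of 0.50 (interval 0.42 to 0.59). SQLE (chr8:124998478-125022283), the squalene epoxidase and a rate-limiting step, showed the larger ratio in Toledo. It was at 31.3 and 27.3 RPKM in SU-DHL-5 DMSO and 40.6 and 39.2 RPKM with JQ1, a log2 ratio of 0.44 (interval 0.38 to 0.52). In the Toledo libraries it was at 31.7 and 36.2 RPKM in DMSO and 56.3 and 53.1 RPKM with JQ1, a log2 ratio of 0.69 (interval 0.63 to 0.75), but the ratios of the lines overlapped between pairs of libraries.

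MSMO1 (chr4:165327666-165343164), a sterol C4 methyl oxidase, was on opposite sides. It was at 34.1 and 36.6 RPKM in SU-DHL-5 DMSO and 51.1 and 48.7 RPKM with JQ1, a log2 ratio of 0.50 (interval 0.43 to 0.57). In Toledo it was at 33.1 and 34.5 RPKM in DMSO and 31.5 and 29.7 RPKM with JQ1, a log2 ratio of -0.14 (interval -0.22 to -0.06). HSD17B7 and EBP were lower in both libraries in both lines. Their log2 ratios in SU-DHL-5 and Toledo were -0.29 and -0.12 for HSD17B7 and -0.09 and -0.41 for EBP. For EBP in SU-DHL-5 the counting interval, from -0.19 to 0.01, held 0. For HSD17B7 in Toledo the pair of libraries nearest 0 was at -0.01. The other enzymes of this group lay between -0.13 and 0.44 (SU-DHL-5) or -0.09 and 0.35 (Toledo).

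The 9 fatty acid and lipid enzymes had a median log2 ratio of 0.20 for SU-DHL-5 and -0.18 for Toledo. FADS1, 1 of the 9, had no reads in SU-DHL-5 and enters that median at a ratio of 0. In SU-DHL-5, 6 were higher in both libraries (background 41.1%) and 1, ELOVL6, was lower (background 37.3%). In Toledo 2, AACS and LPIN1, were higher (background 29.3%) and 6 were lower (background 42.9%). AACS (chr12:125065379-125143333), which activates acetoacetate for lipid synthesis, was higher with JQ1 in both lines. It was at 16.0 and 15.3 RPKM in SU-DHL-5 DMSO and at 27.4 and 24.8 RPKM with JQ1, a log2 ratio of 0.74 (interval 0.66 to 0.83). Toledo cells had it at 10.7 and 10.7 RPKM in DMSO and at 21.3 and 21.8 RPKM with JQ1, a log2 ratio of 1.01 (interval 0.91 to 1.12).

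ELOVL6 (chr4:110049073-110198664), which elongates palmitate to stearate, was lower in both. It was at 7.66 and 7.31 RPKM in SU-DHL-5 DMSO and at 3.97 and 4.40 RPKM with JQ1, a log2 ratio of -0.82 (interval -1.01 to -0.67). The Toledo level was 6.5 and 7.97 RPKM in DMSO and 3.30 and 2.98 RPKM with JQ1, a log2 ratio of -1.18 (interval -1.38 to -1.02). The lower value in SU-DHL-5 lay in the transcript ELOVL6_2, at 6.29 and 5.98 RPKM in DMSO and 2.36 and 2.83 RPKM with JQ1, while ELOVL6_1 was at 1.75 and 1.68 RPKM in DMSO and 1.75 and 1.73 RPKM with JQ1. In Toledo both transcripts were lower without overlap of libraries, with log2 ratios of -1.37 for ELOVL6_1 and -1.06 for ELOVL6_2.

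ACLY, FASN, SCD and FADS2 were higher with JQ1 in SU-DHL-5 and lower in Toledo. For SCD and ACLY the difference in Toledo was close to 0 against the first DMSO library. The pair of libraries nearest 0, which holds that library, was at -0.03 (log2) for SCD and -0.02 for ACLY. It was at -0.56 for FASN and -0.73 for FADS2. The pair nearest 0 in SU-DHL-5 was at 0.01 for FADS2, 0.06 for ACLY, 0.21 for FASN and 0.82 for SCD. SCD (chr10:100347015-100364831), the stearoyl-CoA desaturase, was at 40.1 and 34.4 RPKM in SU-DHL-5 DMSO and at 70.7 and 72.9 RPKM with JQ1, a log2 ratio of 0.95 (interval 0.91 to 0.99). In the Toledo libraries it was at 16.7 and 19.4 RPKM in DMSO and at 16.3 and 15.6 RPKM with JQ1, a log2 ratio of -0.18 (interval -0.25 to -0.10). FASN (chr17:82078338-82098230), the fatty acid synthase, showed the reverse weight, with the larger difference in Toledo. It was at 19.0 and 13 RPKM in SU-DHL-5 DMSO and 22.0 and 22.8 RPKM with JQ1, a log2 ratio of 0.48 (interval 0.44 to 0.55). In Toledo it was at 27.6 and 30.3 RPKM in DMSO and 18.5 and 18.6 RPKM with JQ1, a log2 ratio of -0.64 (interval -0.69 to -0.59).

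ACLY (chr17:41866916-41930542), which makes cytosolic acetyl-CoA from citrate, differed little in either line. It was at 41.6 and 38.4 RPKM in SU-DHL-5 DMSO and 43.9 and 43.6 RPKM with JQ1, a log2 ratio of 0.13 (interval 0.08 to 0.18). Toledo cells had it at 70.8 and 81.6 RPKM in DMSO and 69.0 and 69.8 RPKM with JQ1, a log2 ratio of -0.13 (interval -0.17 to -0.09).

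FADS2 (chr11:61816203-61867354), the delta-6 desaturase of polyunsaturated fatty acids, was at 1.42 and 0.994 RPKM in SU-DHL-5 DMSO and 1.43 and 1.6 RPKM with JQ1, a log2 ratio of 0.30 (interval 0.01 to 0.65). The Toledo level was 10.8 and 11.2 RPKM in DMSO and 6.46 and 6.39 RPKM with JQ1, a log2 ratio of -0.77 (interval -0.90 to -0.65). The level in Toledo came mostly from FADS2_3, a transcript that starts inside the gene (chr11:61828033-61867354) and had no reads in SU-DHL-5. FADS2_3 was at 10.4 and 10.8 RPKM in Toledo DMSO and at 3.70 and 5.02 RPKM with JQ1, while FADS2_2, from the upstream start, was at 2.11 and 1.34 RPKM in DMSO and 3.27 and 2.51 RPKM with JQ1. FADS1 (chr11:61799625-61817057), the delta-5 desaturase beside it, was at 5.18 and 5.99 RPKM in Toledo DMSO and at 2.04 and 1.81 RPKM with JQ1, a log2 ratio of -1.49 (interval -1.73 to -1.33). FADS1 and FADS2 overlap by 855 bases.

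STARD4, a cytosolic sterol carrier named here after its values were seen, had a log2 ratio of 0.69 in SU-DHL-5, with no overlap of libraries, and of -0.14 in Toledo, where the libraries overlapped.

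**Figure D3:**
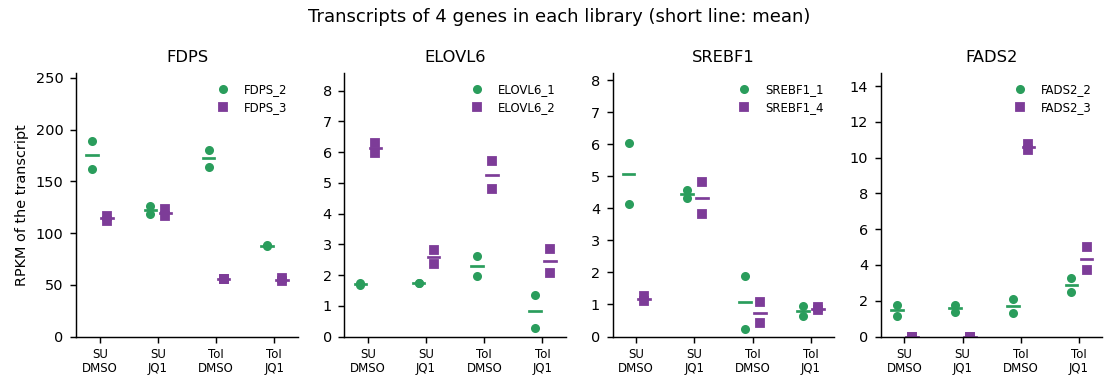
Level in RPKM of 2 transcripts each of FDPS, ELOVL6, SREBF1 and FADS2 in the libraries of the 4 samples (SU, SU-DHL-5, and Tol, Toledo). Points are libraries and short lines their means. FDPS_2 is lower with JQ1 in both lines while FDPS_3 is level, SREBF1_4 is higher in SU-DHL-5, and FADS2_3 has reads in Toledo only.

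Set against each other, the lines shared the direction for 16 of the 33 genes without overlap of libraries. Both were higher with JQ1 for 10 genes (background 22.7%) and lower for 6 (background 29.1%). MVD, TM7SF2 and AACS were past 1.5-fold higher in both lines (3 genes, background 3.56%), and ELOVL6 was past it on the lower side in both (1 gene, background 8.54%). The direction was opposite for 6 genes (background 4.79%), each higher in SU-DHL-5 and lower in Toledo, and no gene showed the reverse (background 2.26%). The log2 ratio was higher in SU-DHL-5 than in Toledo for every pair of libraries for 14 genes (background 29.2%), with INSIG1, SCD, FASN and IDI1 among them. It was higher in Toledo for ACAT2, FDFT1 and AACS (3 genes, background 13.2%). Spearman's rho between the log2 ratios of the lines was 0.48 across the 32 genes with reads in both and 0.73 across the 9402 such genes of the background, where the genes of a line share its libraries. The difference between the lines has no replicate check.

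**Figure D4:**
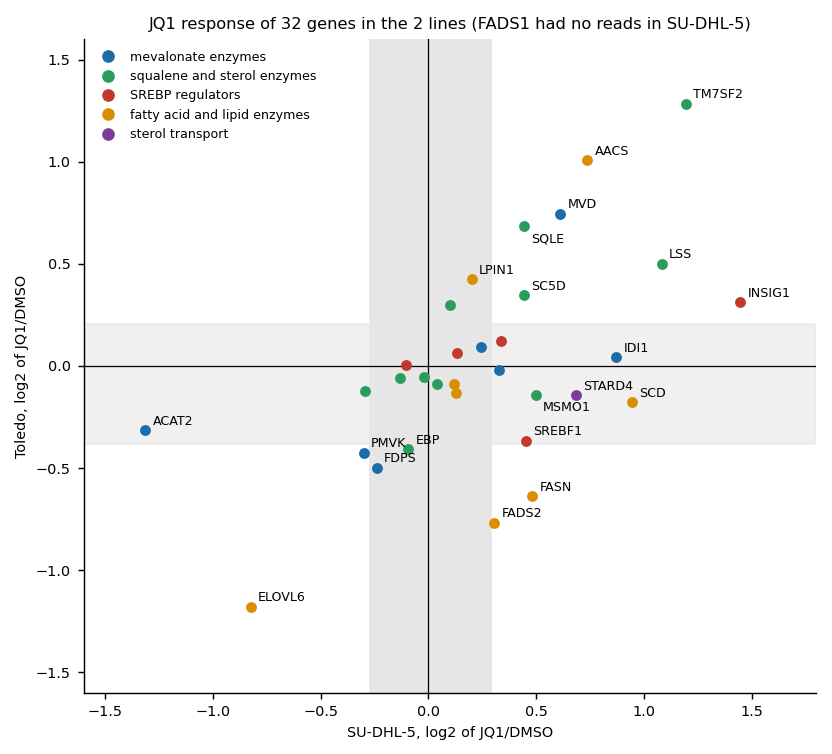
Log2 ratio of JQ1 to DMSO in SU-DHL-5 (horizontal) and Toledo (vertical) for the 32 genes with reads in both lines, coloured by role. Grey bands hold the middle 50% of all 9521 genes in each line. TM7SF2, AACS, MVD, SQLE and LSS lie at the upper right, ELOVL6 and ACAT2 at the lower left, and SCD, FASN, FADS2, SREBF1 and MSMO1 at the lower right.

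Between the DMSO samples of the lines, the counts of genes without overlap of libraries were close to the shares over all genes. Both Toledo libraries lay above both SU-DHL-5 libraries for 15 of the 33 genes (background 42.1%) and below for 13 (background 42.2%). Past 2-fold without overlap, ACAT2, CYP51A1, DHCR7, FADS1 and FADS2 were higher in Toledo (5 genes, background 14.4%), and SREBF1 and SCD were lower (2 genes, background 13.3%). At 1.5-fold, 12 genes were higher (background 25.2%) and 4 were lower (background 23.4%). The median log2 ratio of Toledo to SU-DHL-5 was 0.08 over the 33 genes and -0.01 over all genes. Over the 33 genes it was -0.10 without the second Toledo DMSO library and 0.09 without the first.

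ACAT2, FADS1 and FADS2 set the lines apart most. The ACAT2 level was 32.3 times as high in Toledo, and that of FADS2 was 9.11 times as high. FADS1 had no read in any of the 4 SU-DHL-5 libraries, and Toledo DMSO had 835 reads, which is at least 269-fold higher when 3 reads over both SU-DHL-5 DMSO libraries are taken as the limit. CYP51A1, the lanosterol demethylase, was at 11.0 and 11.2 RPKM in SU-DHL-5 and 23.5 and 29.1 RPKM in Toledo, a log2 ratio of 1.24. DHCR7, the last step to cholesterol by one route, was at 6.71 and 4.99 RPKM in SU-DHL-5 and 14.1 and 14.3 RPKM in Toledo, a log2 ratio of 1.27. On the other side, the SREBF1 level of SU-DHL-5 was 3.36 times that of Toledo, and its SCD level was 2.07 times as high. No library of one line reached the range of the other for these 7 genes.

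**Figure D5:**
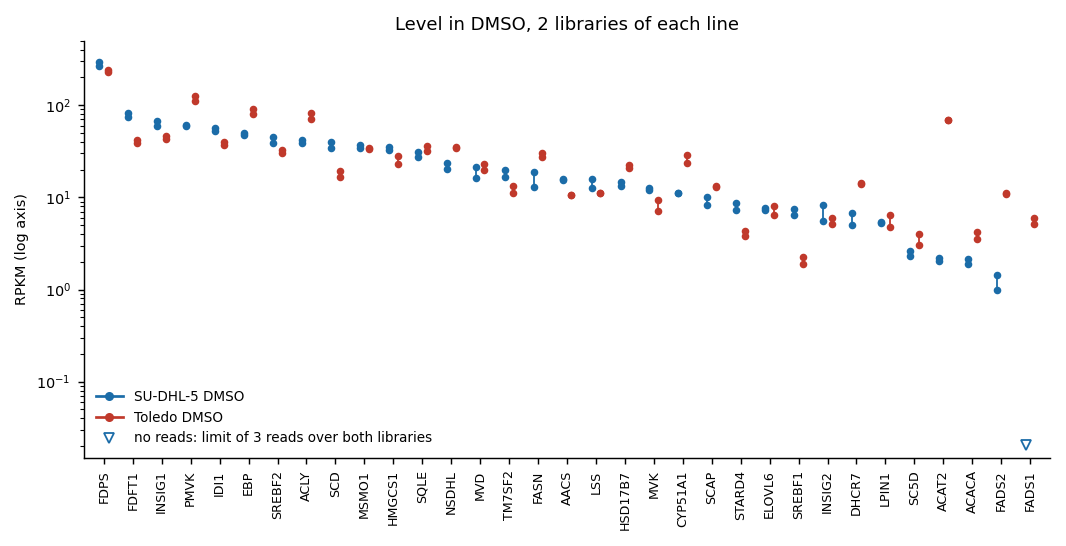
Level in DMSO of the 33 genes in SU-DHL-5 (blue) and Toledo (red), in RPKM on a log axis, ordered by the mean in SU-DHL-5. Points are libraries joined by a line, and the open triangle marks FADS1 in SU-DHL-5, which had no reads, at the limit of 3 reads over both libraries. ACAT2, FADS2 and FADS1 are the genes in which Toledo lies farthest above SU-DHL-5.

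Other genes of these pathways were read from lists of 52 names, of which 46 had a mean of at least 1 RPKM. In SU-DHL-5, 21 of the 46 were higher with JQ1 in both libraries (background 41.1%) and 13 lower (background 37.3%). Past 1.5-fold, 4 were higher (background 8.7%) and 4 lower (background 12.0%), so these counts were close to the background. In Toledo, 19 were higher (background 29.3%) and 14 lower (background 42.9%), and again 4 were past 1.5-fold in each direction (background 6.61% and 16.1%). The 17 other fatty acid genes had a median log2 ratio of 0.28 for SU-DHL-5 and 0.02 for Toledo, and the 8 genes of SREBP processing and sterol sensing had none past 1.5-fold in either line. ACSL5, an acyl-CoA synthetase, was the one gene past 2-fold without overlap in both lines. It was at 15 and 12.3 RPKM in SU-DHL-5 DMSO and 3.22 and 3.40 RPKM with JQ1, a log2 ratio of -2.01. In Toledo ACSL5 was at 9.05 and 9.64 RPKM in DMSO and 0.443 and 0.546 RPKM with JQ1, a log2 ratio of -3.99 on the scale with 0.1 RPKM added.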

How the data were processed

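RNA of 4 samples, SU-DHL-5 and Toledo cells with DMSO or JQ1, was sequenced by the authors on an Illumina instrument from stranded mRNA libraries. For genes and for transcripts they deposited RPKM values, scaled to feature length and mapped reads, of 2 libraries of each sample. The submitters' processing notes name CASAVA 2.0 and GRCh38. The aligner, the counting, its use of strand and the annotation are not given in the sources used here. Gene starts in the tables count from 0, and 1 was added.

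Libraries of a sample were averaged (n = 1). Ratios were log2 of RPKM plus 0.1. A gene was called higher or lower when both libraries of one sample lay above or below both of the other. Mapped reads and lengths were recovered as the values that made RPKM whole reads within 0.01, which succeeded for 14943 of the 14944 genes with a value. Reads gave exact binomial intervals (95%). Calculations were tested on simulated data. Members, lists and the rule for naming genes (the regulators, members on the same side in both lines and past 1.5-fold in 1, members on opposite sides, and members past 2-fold between DMSO samples) were chosen with earlier results of these data known. Older symbols of 3 listed genes were matched through RefSeq synonyms. Promoters came from RefSeq (GRCh38.p14), and 4 members without an entry were SQLE, FDFT1, ACAT2 and FASN. Alternatives varied the pseudocount, scaling, library, table, length correction, filter and cutoff. The work used scipy 1.17.1 with numpy 2.4.6, pandas 2.3.3 for tables and matplotlib 3.10.9 for plots, under Python 3.11.15.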

Additional observations from a re-analysis of the deposited data

Results flagged for a closer look

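In 6 genes the JQ1 libraries exceeded the DMSO libraries without overlap for SU-DHL-5 and were both lower than them for Toledo, and the difference between the lines was not tested. The log2 ratios in SU-DHL-5 and Toledo were 0.95 and -0.18 for SCD, 0.48 and -0.64 for FASN, 0.30 and -0.77 for FADS2, 0.13 and -0.13 for ACLY, 0.45 and -0.37 for SREBF1, and 0.50 and -0.14 for MSMO1. Such a split was found for 4.79% of the 9521 genes of the background. In Toledo the pair of libraries nearest 0, with the first DMSO library, was at -0.03 for SCD, -0.02 for ACLY and -0.07 for MSMO1. It was at -0.17 for SREBF1, -0.56 for FASN and -0.73 for FADS2. The pair nearest 0 in SU-DHL-5 was at 0.01 for FADS2 and 0.06 for ACLY. For FASN, SREBF1, MSMO1 and SCD it was at 0.21, 0.31, 0.41 and 0.82. The split of SCD, ACLY, MSMO1 and FADS2 therefore rests on small differences in at least 1 line. SREBF1 in Toledo and FADS2 in SU-DHL-5 rest on low levels, of at most 2.24 and 1.6 RPKM.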

How the results depend on the processing

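JQ1 and DMSO pair within each line, and a paired fit over both lines would leave 1 residual degree of freedom. It was not run, since the genes were chosen with these ratios known, and no test within a line was possible with 1 sample per group. The median log2 ratio of the 33 genes in SU-DHL-5, 0.24, was 0.19 with 1 RPKM added, 0.19 with the first libraries alone, 0.22 with the second libraries alone, 0.21 centred on transcript length and 0.27 over members of at least 5 RPKM. The median in Toledo, -0.06, lay between -0.13 and 0.02 under its alternatives, and the baseline median, 0.08, between -0.10 and 0.26. With a cutoff of 2-fold in place of 1.5-fold, 3 members were higher and 1 lower in SU-DHL-5, 2 higher and 2 lower in Toledo, and 5 higher and 2 lower between the DMSO samples. These are fewer by the construction of the cutoff. The other counts stayed within 1.5 times the reported ones. The 34 ratios of single members past 1.5-fold kept their sign under all 374 alternatives. Each library was also left out in turn, a choice made after the data were seen, and the median in SU-DHL-5 was then 0.24 and 0.23 without JQ1 library 1 and 2, and 0.27 and 0.22 without DMSO library 1 and 2. With 2 libraries per sample, the absence of overlap is a weak criterion, as the shares of all genes called show.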

Other observations

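Some of the other pathway genes also stood apart, and were chosen after their values were seen. SCD5, a second stearoyl-CoA desaturase, was at 7.70 and 7.31 RPKM in SU-DHL-5 DMSO and at 10.7 and 10.8 RPKM with JQ1, a log2 ratio of 0.52. In Toledo it was at 1.29 and 1.3 RPKM in DMSO and at 0.358 and 0.303 RPKM with JQ1, a log2 ratio of -1.70, so its libraries lay on opposite sides in the lines, as those of SCD did. FADS3, the third gene of the desaturase cluster, was at 9.62 and 10.6 RPKM in SU-DHL-5 DMSO and at 4.19 and 4.43 RPKM with JQ1. In Toledo FADS3 was at 27.1 and 23.6 RPKM in DMSO and at 13.6 and 13.9 RPKM with JQ1, and its log2 ratios were -1.21 and -0.87.

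MYLIP, which marks a lipoprotein receptor for degradation, was higher with JQ1 in both lines, by 0.54 and 1.11 (log2), without overlap of libraries. ACSL1, an acyl-CoA synthetase like ACSL5, was higher where ACSL5 was lower, with log2 ratios of 0.60 and 1.02. ABCG1, a sterol exporter, and ACSS2, an acetyl-CoA synthetase, had no reads in SU-DHL-5, as FADS1 had none, and were at 2.70 and 3.21 RPKM and at 5.77 and 5.60 RPKM in Toledo DMSO, respectively.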
